A study of Mus musculus with 34 samples.

Results

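The genes described here are 35 genes of protein folding in the endoplasmic reticulum (ER) and of the unfolded protein response, chosen by symbol from the 54354 genes of the deposited table, where all 35 were found. They comprise 12 chaperones and cochaperones, 6 disulfide isomerases, 9 genes of ER-associated degradation, 3 sensors and factors of the response (Atf6, Ern1 and Xbp1), 4 genes of the translocon and signal peptidase, and the protein modifier Ufm1. The rule that picks them uses symbols and no measured value, but the list was chosen with earlier results of these data known.

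Proteins that enter the ER through the Sec61 channel are folded there by chaperones such as BiP, the product of Hspa5, and receive disulfide bonds from isomerases, while proteins that do not fold are returned to the cytosol and degraded. When unfolded proteins accumulate, the sensors ATF6, IRE1 (encoded by Ern1) and PERK start the unfolded protein response, in which cleaved ATF6 and the spliced product of Xbp1 raise transcription of chaperone and degradation genes, and PERK slows translation through the integrated stress response. The intestinal epithelium, with its secretory cells, depends on this pathway. Degs1 encodes the desaturase that makes ceramide from dihydroceramide, and ceramides are built on the ER membrane.

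The study sequenced poly(A) RNA from organoids of mouse colon tumours, which are epithelial cultures grown in 3 dimensions, in 34 libraries, and every library had the genotype written as AKP, which the labels did not spell out. Of these, 10 libraries carried a control hairpin (shControl) and 3 a hairpin labelled shYAP. The CRISPR experiment, in which Cas9 ribonucleoprotein was used, held 9 libraries from Degs1-KO clone1, 9 from Degs1-KO clone2 and 3 from their Scrambled control. Library names gave 1 hairpin name for shYAP and 1 line for the Scrambled control and for each clone, and separate cultures are not named for the replicates, so p-values measure only how far these libraries differ, which may be technical.

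Library totals ran from 883253 counts in clone1 replicate 2 to 6597099, and levels are given as CPM, a gene's share of the library's effective total on a common scale. Degs1 was at 8.10, 4.95 and 10.2 CPM in Scrambled, with medians of 3.04 in clone1 and 1.89 in clone2, and was lower in both clones (log2 fold change -1.57, edgeR adjusted p = 0.0117, and -2.15, adjusted p = 0.000156). Yap1 was at 20.1, 19.2 and 17.9 CPM in the libraries labelled shYAP and from 9.51 to 22.1 in shControl, so its mRNA was not shown to be lower (log2 0.20 ± 0.23 SE, edgeR adjusted p = 0.619), and directions for shYAP are those of the libraries so labelled. All 8 epithelial markers were detected in every group, with summed levels from 1796 to 3647 CPM, while fibroblast markers summed to at most 1.19 CPM with Col1a2, Col3a1 and Pdgfrb at 0, and endothelial markers to at most 3.12 CPM with Cdh5, Kdr and Cldn5 at 0. The 6 immune markers summed to between 11.4 and 40.9 CPM, with the T cell gene Cd3e at 0. The 8 plasma cell markers summed to between 53.2 and 214 CPM with Mzb1 at 0; Sdc1, which epithelium also expresses, was higher over both clones (log2 0.59, edgeR adjusted p = 0.000415) and lower in shYAP (-1.09, adjusted p = 0.000138). Markers of goblet and other secretory cells, which have much ER, summed to between 143 and 267 CPM in shControl, 149 and 169 in shYAP, 330 and 337 in Scrambled, 209 and 293 in clone1, and 207 and 334 in clone2. Their part in the results was not tested, and in these bulk samples fewer cells of a type cannot be told apart from less RNA per cell.

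ATF6 and spliced XBP1 act through short elements near the start of their target genes, so the promoters of the genes were searched for them. RefSeq promoters (GRCm38.p6, 250 bases before to 50 bases after the start) were matched for 29 of the 35 genes. The ER stress response element (ERSE), CCAAT and CCACG separated by any 9 bases, was present on either strand in 9 of the 29, against 0.137% of 27025 genes in the same table, and the related ERSE-II, ATTGG and CCACG separated by any 1 base, in 2, against 0.0444%. Together 11 of the 29 genes, or 37.9%, held a match, against 0.181% of all genes, and no match overlapped another motif searched. The elements are shown because they are shared by genes of different roles; capitals mark the fixed ends of the motif, and an element on the minus strand of the promoter is written as its reverse complement.
Calr: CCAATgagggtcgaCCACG
Canx: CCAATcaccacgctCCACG
Creld2: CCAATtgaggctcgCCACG
Derl3: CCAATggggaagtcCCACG
Dnajb11 (ERSE-II): ATTGGcCCACG
Dnajc3: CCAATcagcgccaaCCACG
Herpud1 (ERSE-II): ATTGGgCCACG
Hsp90b1: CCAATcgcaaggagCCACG
Hsp90b1: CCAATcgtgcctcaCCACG
Hspa5: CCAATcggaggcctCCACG
Pdia6: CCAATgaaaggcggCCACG
Syvn1: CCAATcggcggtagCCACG
Of the 12 elements, 11 began between 212 (Hsp90b1, which held 2) and 44 (Syvn1) bases before the start, and the ERSE-II of Dnajb11 began 7 bases after it. The core that XBP1 binds in the unfolded protein response element, TGACGTG, was found in Hspa5 alone, against 2.22% of all genes. The core of the element bound by ATF4 and CHOP, TGATGNAA, was found in Herpud1 alone, against 4.51%. The motifs were searched because they are known from this response, so their excess among its genes is a description and not a test. A match is a description of the letters and does not show that a factor binds.

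The 250 bases before the start are printed for 5 genes on which the comparisons turn, 3 with an element (in capitals) and 2, Sdf2l1 and P4hb, without. Hspa5 lies on the plus strand at chr2:34771840-34772089, Creld2 on the plus strand at chr15:88819396-88819645, Herpud1 on the plus strand at chr8:94386179-94386428, P4hb on the minus strand at chr11:120573254-120573503 and Sdf2l1 on the minus strand at chr16:17132384-17132633, each range being that of the bases shown.
Hspa5: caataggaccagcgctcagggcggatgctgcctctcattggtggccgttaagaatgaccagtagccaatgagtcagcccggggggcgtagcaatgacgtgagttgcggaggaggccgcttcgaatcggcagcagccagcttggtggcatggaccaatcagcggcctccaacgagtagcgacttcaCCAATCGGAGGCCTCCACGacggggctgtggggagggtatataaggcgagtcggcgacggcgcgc
Creld2: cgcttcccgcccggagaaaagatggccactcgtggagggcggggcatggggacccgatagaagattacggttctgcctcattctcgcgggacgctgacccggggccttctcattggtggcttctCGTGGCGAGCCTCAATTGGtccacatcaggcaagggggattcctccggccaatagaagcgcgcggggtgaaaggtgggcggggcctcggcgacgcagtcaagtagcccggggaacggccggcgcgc
Herpud1: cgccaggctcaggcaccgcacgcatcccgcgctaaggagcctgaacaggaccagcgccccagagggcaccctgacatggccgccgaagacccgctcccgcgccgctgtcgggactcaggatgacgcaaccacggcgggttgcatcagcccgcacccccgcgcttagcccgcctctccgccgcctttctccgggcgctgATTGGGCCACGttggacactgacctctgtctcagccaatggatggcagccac
Sdf2l1: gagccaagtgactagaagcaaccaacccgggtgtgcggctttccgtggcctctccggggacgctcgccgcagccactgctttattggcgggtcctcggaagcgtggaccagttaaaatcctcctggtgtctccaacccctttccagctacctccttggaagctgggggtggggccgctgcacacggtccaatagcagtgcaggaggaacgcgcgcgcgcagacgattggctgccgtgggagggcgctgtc
P4hb: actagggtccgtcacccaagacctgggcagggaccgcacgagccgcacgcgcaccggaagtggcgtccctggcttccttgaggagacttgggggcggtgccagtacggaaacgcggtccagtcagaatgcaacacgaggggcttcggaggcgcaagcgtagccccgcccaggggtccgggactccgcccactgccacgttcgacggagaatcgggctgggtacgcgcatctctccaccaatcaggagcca
In Creld2 the element stands on the minus strand, so its capitals open with CGTGG and close with ATTGG.

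Per kilobase of exon, the most abundant transcript in shControl was Sec61b, the small subunit of the translocation channel, at 335 CPM per kilobase, followed by Hspa5 at 142, Hsp90b1 (GRP94, the ER member of the HSP90 family) at 129, P4hb (protein disulfide isomerase) at 115 and Pdia6 at 110. The least abundant were Derl3, at 0.296, the ubiquitin ligase gene Syvn1, at 0.446, and the sensor gene Ern1, at 0.551. The 35 genes together took between 0.308% and 0.586% of the counts of a library. A score, the mean of log2(CPM + 0.5) over the 35 genes, averaged 5.88 ± 0.03 (SD, n = 3) in shYAP, 5.66 ± 0.02 (n = 3) in Scrambled, 5.55 ± 0.14 (n = 10) in shControl, 5.35 ± 0.14 (n = 9) in clone1 and 5.31 ± 0.05 (n = 9) in clone2. The 3 shYAP libraries were above all 31 others on this score, while the ranges of the clones overlapped each other. Library numbers in the names were consecutive except after shControl replicate 4. Other boundaries between runs of neighbouring libraries were set after seeing the values, so differences between such runs are a description. With group means removed, median correlations between libraries within and between runs were 0.18 and -0.23 in shControl, -0.03 and -0.16 in clone1, and 0.09 and -0.20 in clone2. On the score, clone1 averaged 5.26 in replicates 1 to 6 and 5.53 in replicates 7 to 9, both below the 5.65 of the lowest Scrambled library.

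**Figure D1:**
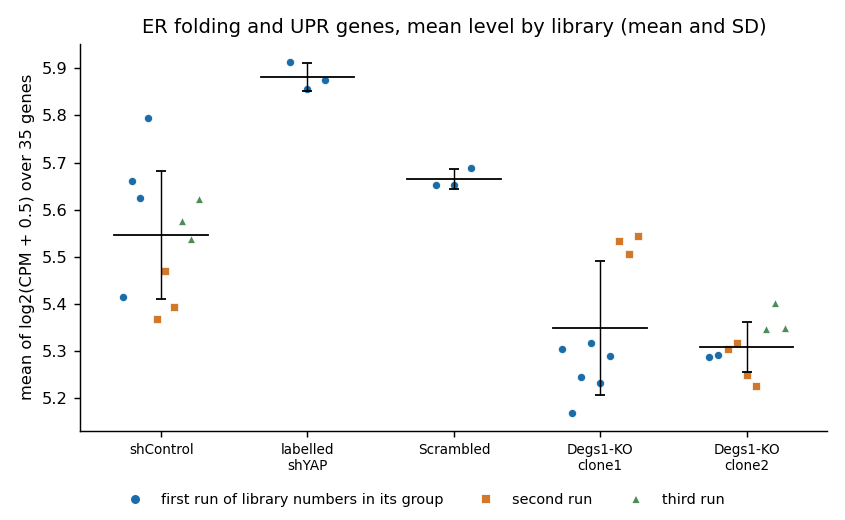
Mean of log2(CPM + 0.5) over the 35 genes for each of the 34 libraries, by group, with points for libraries, marked by their run of neighbouring library numbers, and a line and bar for the group mean and SD. The shYAP libraries lie highest, at a mean of 5.88, and the knockout clones lowest, at 5.35 and 5.31.

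Across the 5 groups, 23 of the 35 genes differed by edgeR's quasi-likelihood test at an adjusted p under 0.05, where 60.1% of all 11960 genes tested did, so a difference somewhere among the groups was about as common among these genes as elsewhere. By role these were 10 of 12 chaperones, 5 of 6 isomerases, 2 of 9 degradation genes, 2 of 3 sensors and factors, 3 of 4 translocon genes, and Ufm1. What differed was therefore examined by direction within each comparison.

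In the Degs1 knockout, 5 of 12 chaperone and 3 of 6 isomerase genes fell, and none of the 34 genes tested rose. Averaged over both clones and set against Scrambled, 11 of the 34 genes tested were lower and 0 were higher, where edgeR called 9.21% of 11514 genes lower and 8.39% higher. The median log2 change was -0.28 for the 34 genes and -0.00 for all genes tested. Counted by role, 5 of 12 chaperones (Hspa5, Sdf2l1, Calr, Manf and Creld2), 3 of 6 isomerases (Pdia5, Pdia6 and Erp44), Atf6 and Xbp1 of the 3 sensors and factors, and Sec61a1 of the translocon genes fell, while 0 of 8 degradation genes passed the test. At an unadjusted p under 0.05, 18 genes were lower and 0 higher, with Herpud1 and Sel1l among the degradation genes, where 15.3% of all genes were lower and 14.4% higher. DESeq2 called 13 lower and limma 11, where they called 19.5% and 15.3% of all genes in either direction. Mitochondrial transcripts took 3.01% to 3.33% of the counts in Scrambled and 3.71% to 5.11% in the knockout libraries, without overlap, and 3.72% to 5.25% in shControl. Their part in the result was not tested.

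Hspa5, the ER's main HSP70, was at 621, 683 and 681 CPM in Scrambled, from 286 to 526.4 with a median of 398 in clone1, and from 254 to 355 with a median of 285 in clone2. All 18 knockout libraries were below all 3 Scrambled libraries, and the log2 change was -0.94 ± 0.11 (SE, edgeR adjusted p = 4.03e-08). Within groups of neighbouring clone1 libraries, Hspa5 averaged 382 CPM in replicates 1 to 6 and 482 in replicates 7 to 9.

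Sdf2l1, a small ER protein that assists BiP, was at 14.6, 15.5 and 15.9 CPM in Scrambled, with medians of 7.95 in clone1 and 5.74 in clone2. The highest clone1 library, at 14.1, came close to Scrambled without reaching it, and the log2 change was -1.10 ± 0.24 (edgeR adjusted p = 0.00102). Manf, a secreted and ER-resident protein that binds BiP, was at 112, 113 and 115 CPM in Scrambled and between 46.5 and 91.1 in the knockout libraries, again without overlap (log2 -0.77 ± 0.13, adjusted p = 2.93e-05). Creld2, an ER protein whose transcript follows ER stress, was at 40.5, 42.2 and 31.7 CPM in Scrambled, and its highest clone1 library, at 38.8, exceeded the lowest Scrambled library (log2 -0.87 ± 0.19, adjusted p = 0.000788). The lectin chaperone gene Calr, at 214, 241 and 204 CPM in Scrambled, had medians of 180 in clone1 and 145 in clone2 (log2 -0.43 ± 0.11, adjusted p = 0.00279), with clone2 below every Scrambled library and clone1 overlapping them. The other lectin chaperone, Canx, showed a log2 change of -0.02 and did not pass the test.

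**Figure D2:**
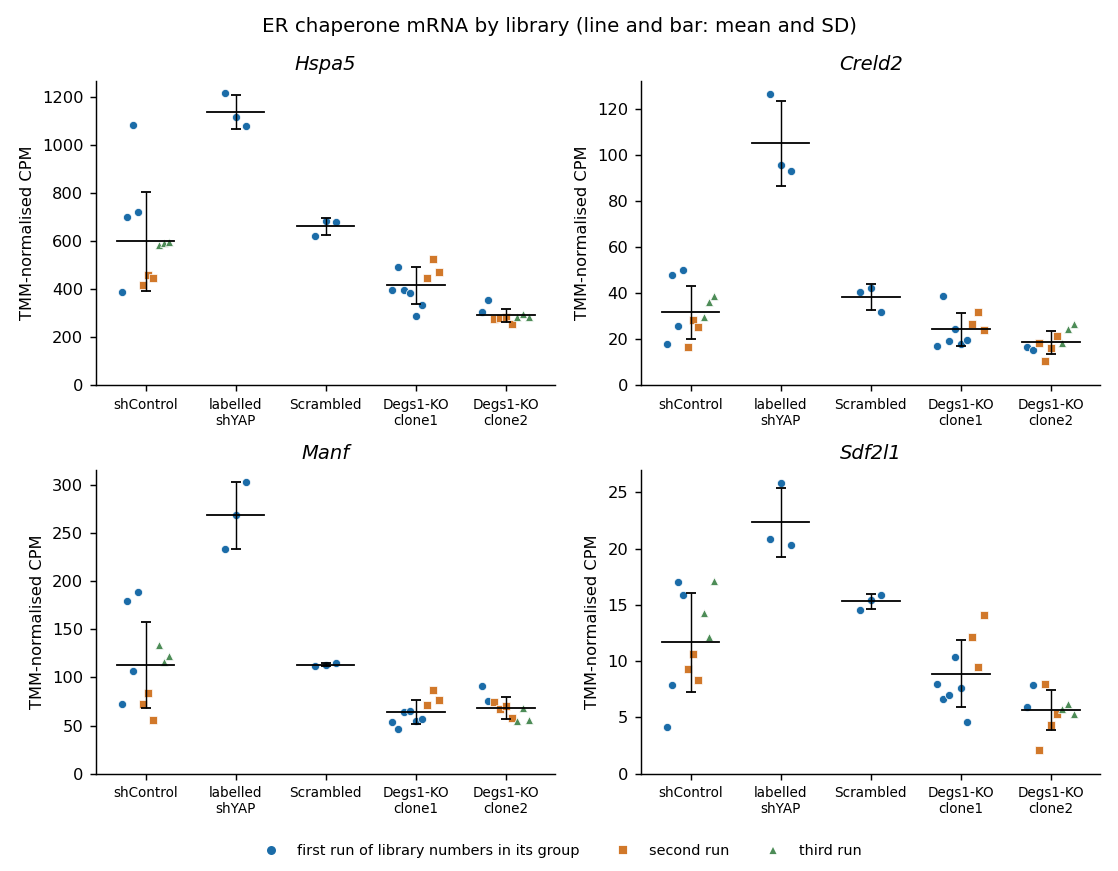
CPM of Hspa5, Creld2, Manf and Sdf2l1 in each of the 34 libraries, by group, with points for libraries, marked by their run of neighbouring library numbers, and a line and bar for the group mean and SD. Knockout libraries lie below Scrambled for Hspa5, Manf and Sdf2l1, and shYAP libraries lie above shControl for Creld2, Manf and Sdf2l1, with 1 shControl library reaching the shYAP range for Hspa5.

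Among the isomerases, Pdia6 fell by 0.40 on the log2 scale (SE 0.10, edgeR adjusted p = 0.00413), from 447, 404 and 469 CPM in Scrambled to medians of 353 in clone1 and 318 in clone2. Erp44, which retains client proteins in the early secretory pathway, fell by 0.62 (SE 0.14, adjusted p = 0.00131), and the low-abundance Pdia5 fell by 1.42 (SE 0.39, adjusted p = 0.00753). Pdia5 was at 8.10, 7.74 and 6.91 CPM in Scrambled and at 0 in the lowest clone1 library, so its fold rests on few counts. All clone1 libraries of Pdia6, Erp44 and Pdia5 were below Scrambled, whereas of these 3 genes Pdia5 alone was without overlap in clone2. P4hb, the most abundant isomerase per kilobase, was at -0.10 ± 0.09 and did not pass the test, nor did Pdia3 at -0.30 (adjusted p = 0.0567) or Pdia4 at 0.16.

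Atf6 was at 35.2, 34.7 and 37.6 CPM in Scrambled, with a median of 28.1 in clone1 and 21.02 in clone2, and fell by 0.59 on the log2 scale (SE 0.15, edgeR adjusted p = 0.00386). Xbp1 was at 59.0, 65.8 and 71.5 CPM in Scrambled, with medians of 50.9 and 41.7, and fell by 0.47 (SE 0.13, adjusted p = 0.0113), a call lost without Scrambled replicate 2 (adjusted p = 0.0677) or 3 (0.102). Sec61a1, the pore of the translocon, was at 250.1, 234 and 278 CPM in Scrambled, with medians of 193 and 152, and fell by 0.51 (SE 0.12, adjusted p = 0.00324). The Atf6 and Sec61a1 falls depended on the control: with shControl in place of Scrambled, in a fit of all 34 libraries, Atf6 was at -0.15 on the log2 scale (adjusted p = 0.302) and Sec61a1 at -0.09 (adjusted p = 0.542). Both genes were higher in Scrambled than in shControl at an unadjusted p under 0.05. Sec61a1 also differed along the library numbers, averaging 176 CPM in clone1 replicates 1 to 6 and 265 in replicates 7 to 9, against 254 in Scrambled. In limma with a block for neighbouring libraries, Atf6 (adjusted p = 0.0845), Xbp1 (0.0826) and Pdia5 (0.110) lost their calls. The table sums Xbp1 transcripts by gene, so spliced and unspliced Xbp1 were not separated.

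Every one of the 18 knockout libraries was below every Scrambled library for 4 genes, Hspa5, Sdf2l1, Manf and Pdia5, where this held for 2.20% of all 11960 genes. With 1 Scrambled library left out, the count of lower genes ran from 8 to 12, with knockout replicates 1 to 6 alone it was 17, and without the shallowest library, clone1 replicate 2, it was 15. These counts stand without the share of all genes called in each setting. Hspa5, Manf, Creld2, Sdf2l1 and Erp44 passed the test in each of the 14 alternatives.

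The clones are described side by side, since both were set against the same 3 Scrambled libraries. In clone1, 9 of 34 genes were lower and 0 higher, where edgeR called 6.71% of all genes lower and 5.96% higher. In clone2, 16 were lower and 3 higher, where 16.6% were lower and 16.5% higher. The median log2 change was -0.26 in clone1 and -0.33 in clone2, beside 0.03 and -0.03 for all genes. Lower in both were Hspa5 (log2 -0.67 in clone1 and -1.20 in clone2), Manf (-0.80 and -0.75), Creld2 (-0.69 and -1.06), Pdia5 (-1.48 and -1.36), Pdia6 (-0.34 and -0.45) and Erp44 (-0.75 and -0.48). Of these, Hspa5 and Manf alone passed in every alternative in both clones. The clone1 call was lost in 6 of 15 alternatives for Creld2, 6 for Pdia6 and 4 for Pdia5. The clone2 call was lost in 4 of 14 for Erp44 and 3 for Pdia5. Hsp90b1 passed the test in clone1 alone (log2 -0.32, adjusted p = 0.0309), a call lost in 6 of 15 alternatives, although its clone2 libraries were all below Scrambled. As lower in clone2 alone, 10 genes passed the test, among them Sdf2l1 (-1.46), Atf6 (-0.83), Sel1l (-0.81), Dnajb11 (-0.73) and Herpud1 (-0.67). Of these 10, Sdf2l1, Atf6, Calr, Hyou1, Pdia3, Xbp1 and Sec61a1 were also lower in clone1 at an unadjusted p under 0.05 in edgeR. Pdia4 was higher in clone2 alone (log2 0.41, adjusted p = 0.0210), but with shControl in place of Scrambled its log2 value was -0.0705, and Pdia4 averaged 328 CPM in shControl replicates 1 to 4 against 161 in Scrambled. The clone1 count was 5 without Scrambled replicate 1, 4 without replicate 2 and 7 without replicate 3. No share of all genes called is given beside these counts, so a smaller count need not be particular to these genes.

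Libraries of clone1 were below all Scrambled libraries for 8 genes, where 5.80% of all genes were. Libraries of clone2 were below for 15, where 11.7% of all genes were, and above for 2, where 12.2% were. The 2 genes above were Sec61b and Sec11c, which moved in opposite directions in the clones.

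Sec11c, a catalytic subunit of the signal peptidase, was at 109, 109 and 101 CPM in Scrambled, from 66.2 to 79.3 with a median of 75.1 in clone1, and from 156 to 235 with a median of 190 in clone2. All clone1 libraries were below and all clone2 libraries above Scrambled, with a log2 change of -0.50 ± 0.11 in clone1 (edgeR adjusted p = 0.00130) and 0.83 ± 0.11 in clone2 (adjusted p = 4.05e-07). Sec61b was at 434, 467 and 405 CPM in Scrambled, from 289.5 to 364 in clone1 and from 511 to 718 in clone2, with the same separation (log2 -0.40, adjusted p = 0.00606, and 0.43, adjusted p = 0.00122). On chromosome 18, where Sec11c lies, the median of 291 genes tested was 0.47 in clone2, where Sec11c rose, and 0.06 in clone1, where it fell. On chromosome 4, where Sec61b and Erp44 lie, the median was -0.25 in clone1, where both fell, and -0.02 in clone2, where Sec61b rose and Erp44 fell. In clone1 the median was also -0.24 on chromosome 9, where Manf and Hyou1 lie, and -0.15 on chromosome 1, where Atf6 lies, beside -0.10 and -0.07 in clone2. The part of these shifts in the values of single genes was not tested.

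**Figure D3:**
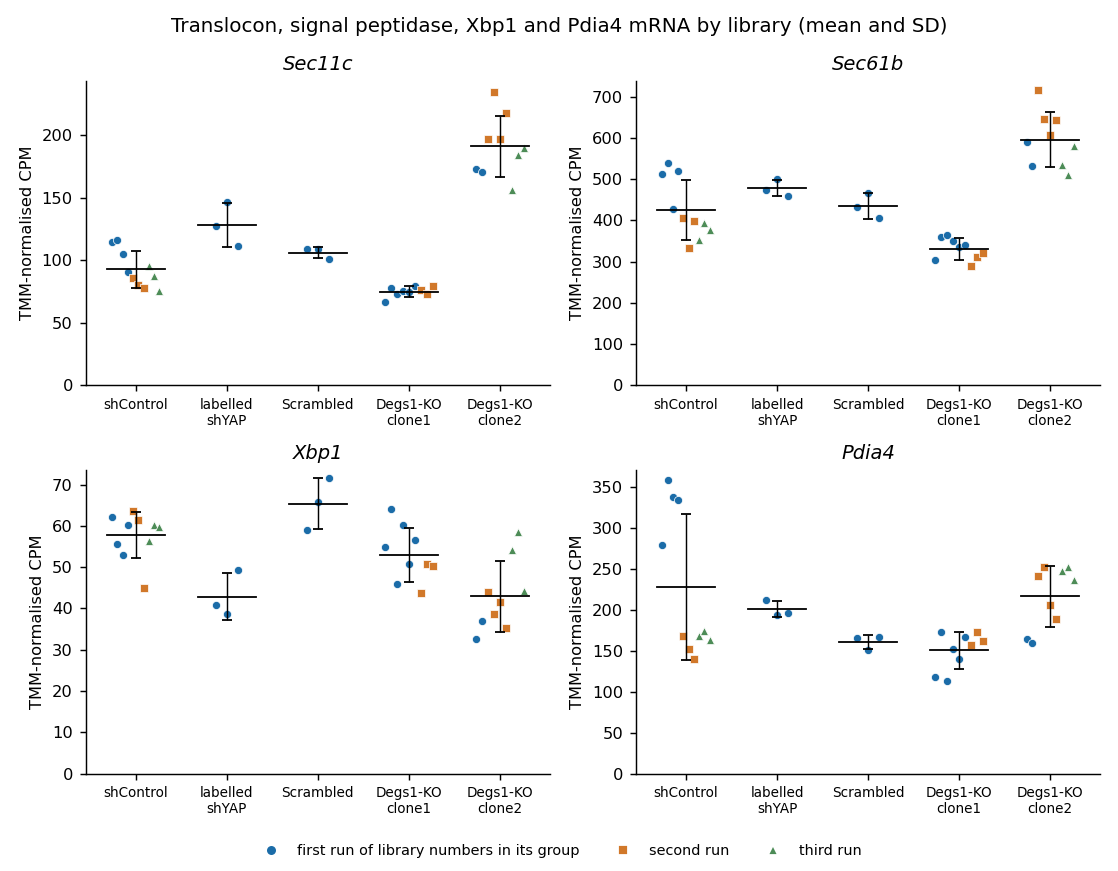
CPM of Sec11c, Sec61b, Xbp1 and Pdia4 in each of the 34 libraries, by group, with points for libraries, marked by their run of neighbouring library numbers, and a line and bar for the group mean and SD. Sec11c and Sec61b lie below Scrambled in every clone1 library and above it in every clone2 library, and Pdia4 is highest in 4 shControl libraries.

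Set directly against each other, 5 genes were higher in clone2 than in clone1 and 10 were lower, where edgeR called 23.6% of all genes higher and 25.5% lower. Higher were Sec11c (log2 1.33, adjusted p = 1.67e-16), Sec61b (0.83, adjusted p = 5.07e-12), Pdia4 (0.51), Dnajc10, a reductase that assists degradation (0.38), and the lectin gene Os9 (0.24). Lower were Dnajb11 (-0.77), Sdf2l1 (-0.71), Sel1l, the scaffold of the degradation complex (-0.65), Hspa5 (-0.54), Herpud1 (-0.50), Atf6 (-0.49), Sec61a1 (-0.43), Canx (-0.39), Calr (-0.33) and Xbp1 (-0.31). With knockout replicates 1 to 6 alone, 6 of these 15 calls were lost, those of Atf6, Calr, Os9, Sdf2l1, Sec61a1 and Sel1l. Os9 passed in 5 of 11 alternatives. Every clone2 library was above every clone1 library for Sec61b and Sec11c, where this held for 7.05% of all genes. Manf, lower in both clones, differed between them by 0.05 (95% interval -0.16 to 0.27), and Dnajc3 by -0.01.

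In the libraries labelled shYAP, 7 of 12 chaperone genes were higher than in shControl, and Hsp90b1, Hyou1, Canx, Dnajc10 and Dnajb9 did not pass the test. Of the 34 genes tested, 11 were higher and 0 lower, where edgeR called 5.47% of 11094 genes higher and 5.90% lower, and the median log2 difference was 0.20 against -0.05 for all genes. The 11 comprised the 7 chaperones, Pdia3 and Pdia6 of the 6 isomerases, Herpud1 of the 8 degradation genes tested, and Ufm1, while 0 of 3 sensors and factors and 0 of 4 translocon genes passed the test. At an unadjusted p under 0.05, 13 genes were higher, with Sec11c and Derl2 besides, and 1, Xbp1, was lower, where 12.4% of all genes were higher and 14.3% lower. DESeq2 called 12 higher and 1 lower, where it called 15% of all genes.

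Creld2 was at 127, 96.0 and 93.2 CPM in the libraries labelled shYAP and from 16.7 to 50.1, with a median of 29.0, in shControl. The groups did not overlap, and the log2 difference was 1.72 ± 0.24 (SE, edgeR adjusted p = 0.000160), the largest among these genes. Manf was at 234, 269 and 304 CPM against 56.2 to 189 (log2 1.24 ± 0.28, adjusted p = 0.0108), and Calr at 479, 406 and 394 against 158 to 332 (log2 0.98 ± 0.18, adjusted p = 0.00104). Both were without overlap. The cochaperone Dnajc3, also known as p58IPK, was at 63.8, 84.1 and 77.1 CPM against 25.1 to 50.4 (log2 0.94 ± 0.19, adjusted p = 0.00227), and Sdf2l1 at 20.9, 25.8 and 20.3 against 4.10 to 17.2 (log2 0.94 ± 0.29, adjusted p = 0.0373), with all shYAP libraries highest.

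Hspa5 was at 1220, 1119 and 1081 CPM in the libraries labelled shYAP, with a median of 589 in shControl. The highest shControl library, replicate 3 at 1086 CPM, lay above 1 of the shYAP libraries, and the next highest was at 722 (log2 0.92 ± 0.22, edgeR adjusted p = 0.0139). That library held 1747533 counts, the second-lowest total, and was also highest in shControl for Pdia3, at 301 CPM, where the shYAP libraries were at 379, 286 and 317. Without it, 12 genes were higher, a count given without the share of all genes called. The Hspa5 call was lost without any 1 of the 3 shYAP libraries (adjusted p from 0.0576 to 0.0749), with the replicate block (0.107) and in limma with a block for neighbouring libraries (0.121), where 3 of the 11 calls held. In all, every shYAP library was above every shControl library for 9 genes, where 5.72% of all genes were: Dnajb11, Dnajc3, Sdf2l1, Calr, Manf, Creld2, Pdia6, Herpud1 and Ufm1.

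Of the remaining genes that rose, the BiP cochaperone gene Dnajb11 differed by 0.88 on the log2 scale, the ER membrane protein gene Herpud1 by 0.74, Pdia3 by 0.66, Pdia6 by 0.51 and Ufm1, a ubiquitin-like modifier attached to ribosomes at the ER, by 0.45. Xbp1 was at 40.8, 38.6 and 49.3 CPM against a median of 60.0 in shControl (log2 -0.44, edgeR adjusted p = 0.0651), and Ern1 showed -0.88 (adjusted p = 0.192), and neither passed the test. Hsp90b1 (0.20), P4hb (-0.12), Edem1 (-0.27) and Dnajb9 (-0.35) did not pass the test. Hsp90b1 averaged 726 CPM in shControl replicates 1 to 4, 354 in replicates 5 to 7 and 409 in replicates 8 to 10, against 598 in shYAP, and every shYAP library was above all 6 later shControl libraries. The count was 5 without shYAP replicate 1, 5 without replicate 2 and 4 without replicate 3, when 4.40%, 3.56% and 4.46% of all genes were called, and Calr, Creld2 and Dnajc3 passed in each of the 13 alternatives. With only shControl replicates 8 to 10 as controls, 15 genes were higher and 3 lower, and all 11 calls held. That count is given without the share of all genes called. Degs1 itself was at 10.1, 18.3 and 15.9 CPM in these libraries against 2.63 to 7.93 in shControl (log2 1.47, adjusted p = 0.00205).

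**Figure D4:**
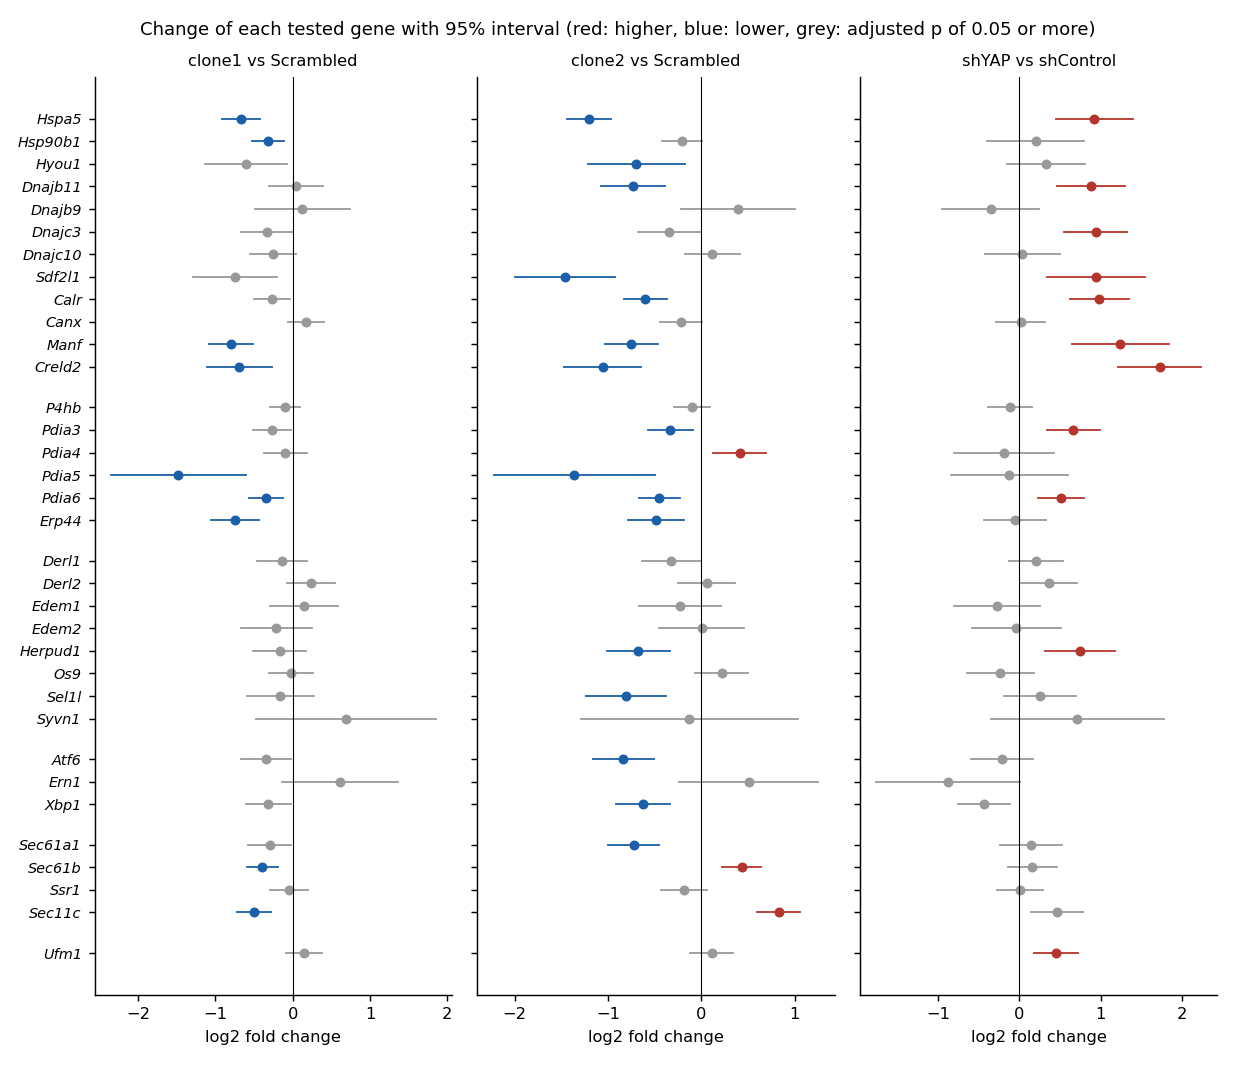
Log2 differences of the genes tested, with 95% intervals, for clone1 and clone2 against Scrambled and shYAP against shControl. Creld2, Manf, Calr and Hspa5 lie above 0 in shYAP and below 0 in both clones, with Creld2 at 1.72, -0.69 and -1.06.

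The 2 control groups, which differ in the tool used to make them, were compared in the fit of all groups. Between Scrambled and shControl, 0 of 35 genes passed the test, where edgeR called 1.76% of genes higher and 1.19% lower in Scrambled, with a median log2 difference of 0.04 for these genes. DESeq2 and limma also called 0, the replicate block gave 2 higher and shControl replicates 5 to 10 alone gave 1. At an unadjusted p under 0.05, 3 genes (P4hb, Atf6 and Sec61a1) were higher and 1 (Pdia4) lower, where 7.54% and 8.32% of all genes were. All Scrambled libraries were above all shControl libraries for Sel1l and Atf6, 2 genes, where this held for 2.60% of all genes.

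The knockout difference (both clones against Scrambled) and the shYAP difference (against shControl) were then compared within 1 fit of all 34 libraries, since each had its own control. For 12 of 35 genes the knockout difference was lower than the shYAP difference, and for 0 it was higher, where 9.0% of 11960 genes were lower and 9.84% higher, with a median of -0.43 against 0.08 for all genes. They were 8 of 12 chaperones, Pdia3, Pdia6, Herpud1 and Sec61a1. Creld2 differed by -2.59 ± 0.32 (SE, edgeR adjusted p = 1.73e-07), Sdf2l1 by -2.04, Manf by -2.01, Hspa5 by -1.86 (adjusted p = 6.72e-07), Calr by -1.42, Dnajc3 by -1.27 and Dnajb11 by -1.23. Of the 12, 10 passed in each of the 18 alternatives, and Hyou1, an HSP70 relative that serves BiP (-0.98, adjusted p = 0.0310), and Sec61a1 (-0.65, adjusted p = 0.0304) passed in 9 of 18.

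The promoter elements were set beside these differences as a description. In shYAP, 7 of 10 genes with an ERSE or ERSE-II were higher, with a median log2 difference of 0.81, and 3 of 18 without were, with a median of -0.05. For both clones, 4 of 10 with an element and 4 of 18 without were lower, with medians of -0.37 and -0.08, and in clone2 alone 6 of 10 and 6 of 18 were, with medians of -0.52 and -0.05. Of all genes tested, edgeR called 5.47% higher in shYAP, 9.21% lower over both clones and 16.6% lower in clone2. Derl1, Manf, Atf6, Hyou1, Sec61a1 and Sec11c had no matched promoter and are in neither part. Of these, Manf, Atf6 and Sec61a1 were lower over both clones, and Manf was higher in shYAP. Elements did not separate the genes fully: Hsp90b1, which holds 2, and Canx, which holds 1, did not pass in shYAP, while Sdf2l1 and Pdia3, without a match in this window, did. Creld2, Hspa5 and Herpud1, whose upstream bases are printed above with their elements, differed by 1.72, 0.92 and 0.74 in shYAP. Of the 2 printed without one, Sdf2l1 differed by 0.94, above Hspa5 and Herpud1, and P4hb by -0.12.

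**Figure D5:**
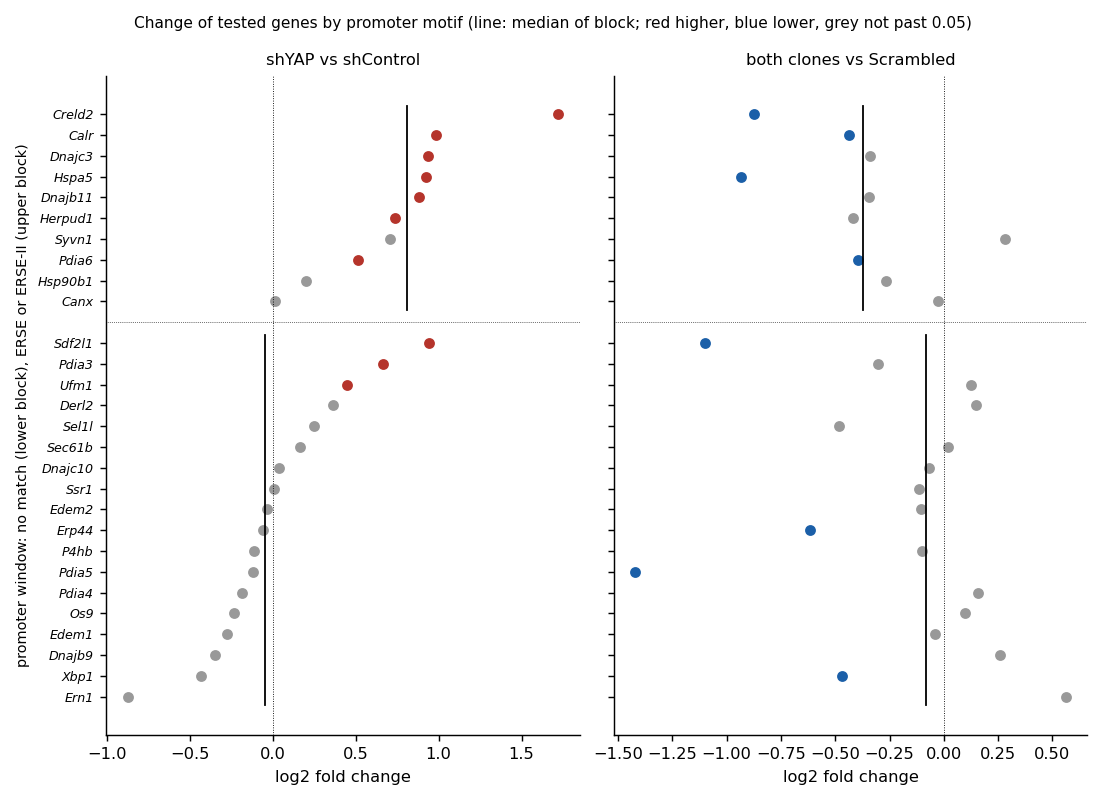
Log2 differences of single genes in shYAP against shControl and averaged over both clones against Scrambled, with genes holding an ERSE or ERSE-II in the upper block, genes without in the lower block, and a line at the median of each. In shYAP the medians are 0.81 with an element and -0.05 without.

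Other genes of the pathway, from lists that do not contain the 35, were counted in the same fits. Beside them, edgeR called 8.39% of all genes higher and 9.21% lower over both clones, and 5.47% higher and 5.90% lower in shYAP. Of 24 genes of the PERK arm and integrated stress response, 12 were lower and 1 higher over both clones, with a median log2 change of -0.61, led by the stress cytokine gene Gdf15 (-1.97), the serine synthesis gene Psph (-1.45) and the mitochondrial folate enzyme gene Mthfd2 (-1.39). In shYAP, 1 was higher (Slc7a11, the cystine transporter, 0.97) and 1 lower (Vldlr, -1.44), with a median of -0.17. The knockout value of Gdf15 is an average of clones that differed, with clone2 lower than clone1, as given under the other observations. Of 15 cytosolic and mitochondrial heat shock genes, 5 were lower and 0 higher over both clones, among them Hspd1 (-1.09), Hspe1 (-0.73) and Fkbp4 (-0.41). In shYAP, 5 of 16 were higher and 0 lower, led by Hspb1 (3.06), Dnaja1 (1.14) and Hsp90aa1 (1.09), with a median of 0.61.

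Of 26 genes of N-glycosylation and glycoprotein quality control, 7 were lower and 2 higher over both clones, with Alg6 (-0.78), the glycoprotein folding sensor gene Uggt1 (-0.77) and the oligosaccharyltransferase subunit gene Magt1 (-0.75) lowest, while in shYAP 0 were higher and 1 lower. Of 27 other translocon, signal recognition and signal peptidase genes, 7 were higher and 0 lower in shYAP, among them Emc6 (0.75), and 3 were higher and 4 lower over both clones. Ero1a, the oxidase that recharges protein disulfide isomerase, was lower in both experiments, by -0.80 over both clones and -1.57 in shYAP, unlike Hspa5 and Creld2, which differed in sign between them. Sdf2, a relative of Sdf2l1, was higher over both clones (0.87) while Sdf2l1 was lower. Of 33 other folding and redox genes 5 were higher and 5 lower over both clones, or 30.3% called, where 17.6% of all genes were. Of 29 degradation genes 2 were higher and 2 lower (13.8%), of 27 ER to Golgi genes 1 and 4 (18.5%), of 7 genes of UFM1 conjugation 0 and 1, and of 13 other sensors and factors of the response 0 and 0.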

How the data were processed

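Directional libraries were made from poly(A)-selected RNA, per the labels' protocols. The values are expected counts for each gene, made by the authors with Salmon 1.3.0 on build mm10, per the submitters' processing notes, deposited as whole numbers and not scaled between libraries. The annotation release was not given in the sources used here. The 1243 entries without a name were kept under their identifiers, were tested where they passed the filter, and held at most 0.0475% of the counts of a library. The 35 genes, the 9 further lists and the motifs were chosen with earlier results of these data known. After filterByExpr with a minimum count of 10 and a minimum total of 15, genes were normalised by TMM and tested two-sided in edgeR 4.0.16 (R 4.3.3) by its quasi-likelihood test with robust estimates, with Benjamini-Hochberg adjustment over all genes tested and a threshold of 0.05. The knockout libraries shared 1 fit (11514 genes), the hairpin libraries another (11094), and comparisons across experiments a fit of all 34 (11960). Derl3 passed the filter in the fit of all 34 alone. CPM, relative to the effective library total, and gene positions and exon lengths from GENCODE M21 were added here, and intervals hold no error other than the fitted spread between libraries. Any of the 35 could be named, with Degs1 and Yap1 always. Of each further list and comparison at most 3 genes were named, those with the largest change past the threshold and a mean log2 CPM of at least 1. Replicate numbers did not pair libraries, with correlations from -0.14 to 0.22 between same-numbered libraries after group means were removed. Groups of neighbouring libraries were set after seeing the values, apart from the gap after shControl replicate 4. Each fit was first tested on simulated data holding known changes. Alternatives were DESeq2 1.42.0 and its size factors, limma 3.58.1 with and without a block for neighbouring libraries, no filter on low counts, other groups in the fit, the replicate number as a block, left-out replicates and other control libraries.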

Additional observations from a re-analysis of the deposited data

Results flagged for a closer look

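In 10 of 105 combinations of a gene with shControl, clone1 or clone2, the groups large enough for the check, 1 library stood apart from the rest of its group. For independent values with a normal spread, about 1 in 20 groups would be set apart in this way. CPM values need not be normal, and genes of the same library are not independent, so the count is a description. In shControl, replicate 3 was highest for Hspa5 (1086 CPM), Dnajc10 (89.3) and Pdia3 (301), replicate 7 was highest for Derl3 (3.01) and replicate 1 for Edem2 (17.5). In clone1, replicate 2 was lowest for P4hb (274 CPM), replicate 4 for Erp44 (16.3) and replicate 1 for Sec11c (66.2). In clone2, replicate 1 was lowest for Hyou1 (4.24 CPM) and replicate 9 for P4hb (322).

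The knockout difference in clone2 was tested against that in clone1, and 15 of 34 genes differed, or 44.1%, where 49.1% of all genes did, so a difference was no more common among these genes than elsewhere. The values are log2. Clone2 was lower for Dnajb11 (-0.77), Sdf2l1 (-0.71), Sel1l (-0.65), Hspa5 (-0.54), Herpud1 (-0.50), Atf6 (-0.49), Sec61a1 (-0.43), Canx (-0.39), Calr (-0.33) and Xbp1 (-0.31). It was higher for Os9 (0.24), Dnajc10 (0.38), Pdia4 (0.51), Sec61b (0.83) and Sec11c (1.33). Of these 15 calls, 6 were lost with knockout replicates 1 to 6 alone, as named above.

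The knockout difference over both clones was lower than the shYAP difference for 12 genes by a test of the difference. The log2 values were -2.59 for Creld2, -2.04 for Sdf2l1, -2.01 for Manf, -1.86 for Hspa5, -1.42 for Calr, -1.27 for Dnajc3, -1.23 for Dnajb11, -1.16 for Herpud1, -0.98 for Hyou1, -0.96 for Pdia3, -0.91 for Pdia6 and -0.65 for Sec61a1.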

How the results depend on the processing

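Counts of called genes among the 35 moved by more than 1.5 times in these settings. For both clones (reported 11), knockout replicates 1 to 6 alone gave 17, while leaving out a Scrambled replicate gave 8 to 12, within that limit. For clone1 (9), leaving out Scrambled replicate 1 gave 5 and replicate 2 gave 4, while replicate 3 gave 7, within that limit. For clone1, limma with a block for neighbouring libraries gave 5. For shYAP (11), leaving out a shYAP replicate gave 4 to 5, shControl replicates 8 to 10 alone gave 18, and limma with that block gave 3, Calr, Creld2 and Dnajc3. For Scrambled against shControl (0), shControl replicates 5 to 10 alone gave 1 and the replicate block 2. The cause of these shifts was not tested. Except for the left-out shYAP libraries, no share of all genes called is given beside the counts of these and the following settings. A shift in count therefore need not be particular to these genes. Pdia4 in clone2 turned to -0.0705 (adjusted p = 0.754) with shControl in place of Scrambled, and Xbp1 between the clones turned to 0.13 (adjusted p = 0.438) in replicates 7 to 9 alone.

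With the replicate block, which rests on shared numbers and not on a shared source, the counts were 15 for both clones, 9 for clone1, 18 for clone2, 16 between the clones, 8 for shYAP, 2 for Scrambled against shControl, 12 for the knockout against shYAP and 24 over all groups. Genes at a few CPM, such as Derl3, Syvn1, Pdia5 and Ern1, rest on few counts, and a change in them smaller than their spread was not detectable at this depth. The Wald test of DESeq2 was not run for the comparison over all 5 groups, where its likelihood ratio test called 25.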

Other observations

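Pathway genes outside the 35 also differed between the clones. Set against clone1, clone2 was higher for Kdelr3, a receptor that returns ER proteins from the Golgi (log2 1.39, edgeR adjusted p = 2.66e-09), Sil1, the nucleotide exchange factor of BiP (1.25, adjusted p = 2.12e-13), Tmx3, a membrane-bound isomerase (1.06, adjusted p = 5.52e-12), and Srp19 of the signal recognition particle (0.87, adjusted p = 6.53e-09). Sil1, Tmx3 and Srp19 lie on chromosome 18, as Sec11c does, where the median of 291 genes was 0.36 in clone2 against clone1. Clone2 was lower for Gdf15 (-2.72, adjusted p = 1.96e-10) and Fkbp9, an ER prolyl isomerase (-3.16, adjusted p = 3.55e-08). The part of the chromosome's shift in these values was not tested.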
